A study of Homo sapiens with 519 samples.

Results

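The genes examined here are 8 that carry iron into cells, store it or sense it: TFRC, FTH1, FTL, SLC11A2, SLC40A1, IREB2, ACO1 and NCOA4. They were listed by symbol, with earlier results of these data known. All 8 were found in each of the 4 deposited count tables, among 18817 gene symbols that those tables share. The libraries come from SK-N-BE(2), an established human neuroblastoma line with amplified MYCN, and every group shares that background, so all results concern 1 line in culture. Cells were exposed to compounds diluted from DMSO stocks in 96-well plates. The study searched for compounds selective for MYCN-amplified neuroblastoma and followed isopomiferin, a prenylated isoflavone, and its relatives.

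The first experiment exposed cells for 24 h to 90 compounds, each in 1 well on each of 2 plates (the protocol names duplicate plates, and replicate labels 1 and 2 are taken here as plates 1 and 2), at label doses without a unit, beside 8 DMSO wells and 4 wells without DMSO. The second experiment tested 15 compounds at 2 doses and at 6 h and 24 h in 3 libraries each, with 6 wells labelled Control at each time and doses that the labels give in mM. The third experiment tested 29 treatments for 24 h in 3 libraries each against 9 DMSO wells, again with label doses that mostly carry no unit. Of those 29, 14 were isoflavones and analogs: pomiferin and isopomiferin at 3 doses each, Pom Triacetate, H-Pomiferin (12P), Osajin (13O), H-Osajin (12O), Isoosajin, Osajin 4 Methyl ether and the code-named 43-13 and 43-19. These first 3 experiments used PLATE-seq, a pooled low-depth RNA-seq method for plates. The fourth, called TruSeq, sequenced 3 deep libraries each of cells given Isop or Pom at 3 µM or 10 µM, Null at 10 µM, or DMSO, for 3 h or 6 h, and 3 MOCK libraries whose time labels conflict. Isop, Pom and Null are the labels for isopomiferin, pomiferin and an analog described by the study as null.

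Transferrin receptor, encoded by TFRC, takes up transferrin-bound iron at the cell surface, and SLC11A2 (DMT1) moves iron across membranes into the cytosol. Surplus iron is held in ferritin, a shell of heavy (FTH1) and light (FTL) chains; NCOA4 delivers ferritin to the lysosome, where its iron is released, and SLC40A1 (ferroportin) exports iron. The iron regulatory proteins, ACO1 (IRP1) and IREB2 (IRP2), bind hairpins called iron-responsive elements when iron is scarce: bound in the 3′ UTR they stabilise TFRC mRNA, and bound in the 5′ UTR they block translation of ferritin and ferroportin mRNA. Ferritin genes are also known targets of NRF2, the transcription factor of the oxidative stress response. Library counts report mRNA level only, so control of ferritin at translation is outside what these tables measure.

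The hairpins that set TFRC apart from ferritin are printed here because they are where the same regulatory proteins act on uptake and storage mRNAs. A search of GENCODE release 29 transcripts (GRCh38) for a CAGTGN loop on 5 paired upper stem positions, a bulged C and at least 4 of 6 paired lower positions found 4 in the TFRC 3′ UTR and 1 each in the 5′ UTRs of FTH1, FTL and SLC40A1. Only 44 of 19669 coding genes (0.224%) held such a hairpin anywhere in a protein-coding transcript, in a UTR or not, and 4 of the 8 genes did. Each sequence runs 5′ to 3′ on the transcript strand in DNA letters, with the loop in capitals.
TFRC 3′ UTR (chr3:196050979-196051007, minus strand): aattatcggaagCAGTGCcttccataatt
TFRC 3′ UTR (chr3:196050575-196050603, minus strand): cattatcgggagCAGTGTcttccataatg
TFRC 3′ UTR (chr3:196050510-196050538, minus strand): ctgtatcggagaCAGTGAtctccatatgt
TFRC 3′ UTR (chr3:196050463-196050491, minus strand): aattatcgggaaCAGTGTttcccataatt
FTH1 5′ UTR (chr11:61967574-61967602, minus strand): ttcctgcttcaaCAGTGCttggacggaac
FTL 5′ UTR (chr19:48965335-48965363, plus strand): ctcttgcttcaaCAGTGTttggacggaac
SLC40A1 5′ UTR (chr2:189580661-189580689, minus strand): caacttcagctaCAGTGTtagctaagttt
The FTH1 and FTL hairpins share 26 of 29 bases, and the 4 TFRC hairpins carry 3 different sixth loop bases. The FTH1 hairpin lies in 7 of 8 coding transcripts and the FTL hairpin in 1 of 1, whereas the SLC40A1 hairpin lies in 1 of 5. No hairpin of this form was found in SLC11A2, IREB2, ACO1 or NCOA4. That says only that this paired form is not in their annotated protein-coding transcripts, and it does not cover hairpins with irregular stems.

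Depth differed widely between the experiments. TruSeq libraries held 17209306 to 33280770 counts, second-experiment libraries 608491 to 1901416, third-experiment libraries 706208 to 5263249, and first-experiment libraries 38670 to 3958909, of which 4 were under 500000. The median TFRC count per library was 10110 in TruSeq, 50 in the third experiment, 33 at 24 h and 26 at 6 h in the second, and 13 in the first, so TFRC changes were resolved far more finely in TruSeq than on the plates. Of 10 neuroblast markers, 8 to 10 had a median over 10 CPM (counts scaled by library size to a common total) in each experiment, as did 2 to 4 of 5 mesenchymal markers and none of the immune, endothelial, epithelial or red cell markers. Labels name replicates but not separate cultures, so p-values measure the spread between these libraries, which may be technical. A call means an adjusted p under 0.05 in edgeR's quasi-likelihood test, adjusted by Benjamini-Hochberg over all genes of a contrast, and errors of log2 changes are standard errors.

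TFRC mRNA was higher in every TruSeq group given isopomiferin or pomiferin and was called in neither group given the null analog. At 6 h the DMSO libraries held 354, 360 and 334 CPM of TFRC. Libraries given Isop at 10 µM held 485, 491 and 495 CPM, and those given Pom at 10 µM held 485, 479 and 494 CPM. Null libraries at the same dose and time held 356, 339 and 355 CPM. Every library of the 2 active compounds lay above every DMSO and Null library.

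These levels corresponded to log2 changes of 0.49 ± 0.04 for Isop (a 1.40-fold rise, adjusted p = 4.11e-11, edgeR) and 0.48 ± 0.04 for Pom (1.39-fold, adjusted p = 5.33e-11, edgeR) at 10 µM and 6 h. At 3 µM the 6 h changes were 0.42 for Isop and 0.42 for Pom, with libraries at 472, 460 and 467 CPM and at 483, 461 and 462 CPM. The rise was already present at 3 h: against DMSO libraries at 372, 372 and 339 CPM, Isop at 10 µM gave 402, 455 and 451 CPM (0.27 ± 0.04, adjusted p = 6.45e-05, edgeR) and Pom at 10 µM gave 417, 403 and 446 CPM (0.22 ± 0.04, adjusted p = 8.9e-04, edgeR). The smaller 3 h changes rested on few libraries: without replicate 3 the adjusted p became 0.16 for Pom at 10 µM, 0.21 for Isop at 3 µM and 0.24 for Pom at 3 µM, and without replicate 2 it became 0.069 for Isop and 0.056 for Pom at 3 µM. The Null changes in TFRC were -0.06 at 3 h and 0.00 at 6 h.

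**Figure D1:**
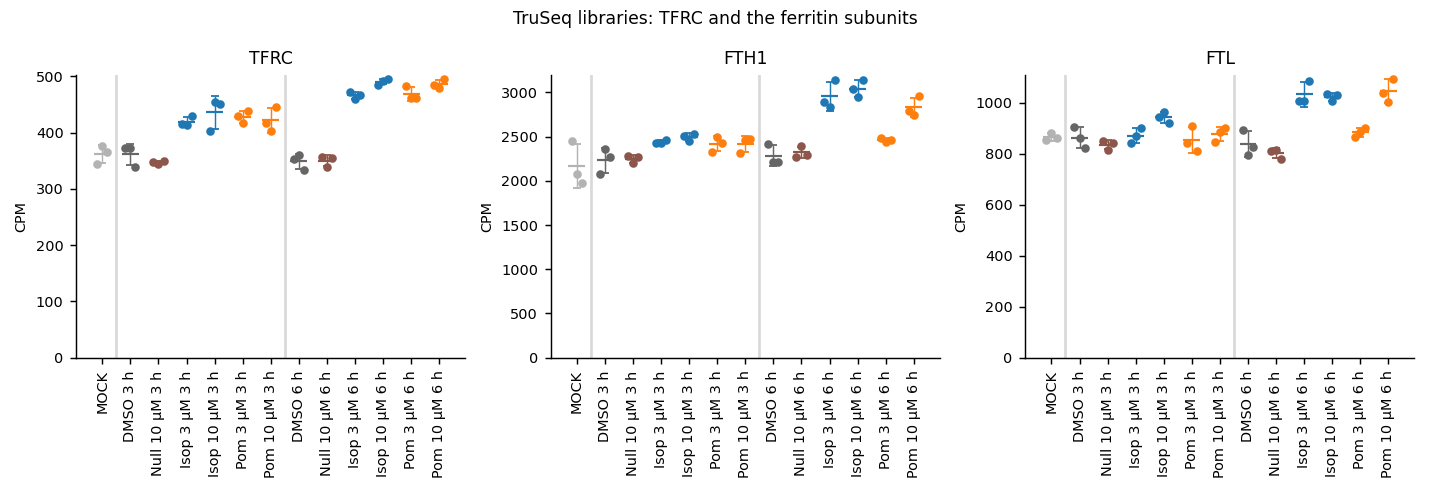
CPM of TFRC, FTH1 and FTL in each TruSeq library (points) by group, with the group mean and SD (lines). TFRC points of all isopomiferin and pomiferin groups sit above the DMSO points of their time, and FTH1 and FTL points at 6 h are high for Isop at both doses and Pom at 10 µM. For Pom at 3 µM and 6 h, FTH1 points lie just above the DMSO points and FTL points overlap them.

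Both ferritin chains were called at 6 h, in 3 groups each, and in no group at 3 h by edgeR. At 3 h, Isop at 10 µM gave FTH1 at 2512, 2448 and 2525 CPM against 2078, 2357 and 2266 in DMSO (0.16 ± 0.05, adjusted p = 0.090, edgeR), and DESeq2 called this change (0.048). At 6 h, DMSO libraries held 2420, 2214 and 2216 CPM of FTH1, and Isop at 10 µM gave 3039, 2949 and 3141 CPM (0.41 ± 0.05, adjusted p = 1.67e-07, edgeR). FTH1 was likewise above all DMSO libraries with Isop at 3 µM (2888, 2839 and 3141 CPM) and with Pom at 10 µM (2785, 2749 and 2957 CPM). Pom at 3 µM gave 2480, 2439 and 2458 CPM, above the DMSO libraries by a margin that missed the threshold (0.11 ± 0.05, adjusted p = 0.295, edgeR).

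FTL was called in the same 3 groups at 6 h. DMSO libraries held 891, 795 and 826 CPM of FTL, Isop at 10 µM 1032, 1005 and 1029, Isop at 3 µM 1005, 1004 and 1086, and Pom at 10 µM 1038, 1001 and 1094. Their log2 changes were 0.29, 0.30 and 0.32, each with an SE of 0.04, and none of their libraries overlapped DMSO. Pom at 3 µM gave 865, 885 and 901 CPM of FTL and Null gave 810, 815 and 779 CPM, both overlapping DMSO. The TFRC rise of Pom at 3 µM therefore stood without a called ferritin change.

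Over the TruSeq experiment 17 of 80 gene and treatment tests were called, 15 of them higher, where 9.19% of all gene tests were called and 5.09% were called higher. The 3 h contrasts called TFRC alone: 1 of 8 genes for Isop at 10 µM (background 4.19%), Pom at 10 µM (4.19%), Isop at 3 µM (1.72%) and Pom at 3 µM (0.339%). At 6 h the calls numbered 3 of 8 for Isop at 10 µM (background 25.4%), 4 for Isop at 3 µM (17.9%), 5 for Pom at 10 µM (31.5%) and 1 for Pom at 3 µM (5.55%). Null had 0 of 8 calls at 3 h (0.104%) and at 6 h (0.965%); none of its 16 tests had an unadjusted p under 0.05, and DESeq2 also called 0.

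The iron sensors had few calls, all at 6 h. IREB2 was higher with Pom at 10 µM for 6 h (203, 214 and 189 CPM against 189, 175 and 154; 0.22 ± 0.08, adjusted p = 0.026, edgeR), a call lost without replicate 2 (adjusted p = 0.091) or 3 (0.17). The lowest library of that group lay just above the highest DMSO library. With Isop at 3 µM, IREB2 was lower at 158, 151 and 137 CPM (-0.22 ± 0.08, adjusted p = 0.0498, edgeR), overlapping DMSO; this call was lost under another scaling, without the filter on low counts and on leaving out each replicate. ACO1 was lower with Pom at 10 µM for 6 h, 16.8, 18.6 and 16 CPM against 19.2, 19.8 and 22 (-0.24 ± 0.08, adjusted p = 0.022, edgeR), and lost its call without replicate 1 (adjusted p = 0.088) or 3 (0.32).

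The remaining members had no TruSeq call. SLC11A2 ranged from 48.1 to 63.4 CPM and NCOA4 from 137 to 163 CPM over all libraries; edgeR called 0 of their 20 tests, 2 of SLC11A2 had an unadjusted p under 0.05, and DESeq2 called 1. SLC40A1 was near its detection limit at 0.676 to 2.56 CPM, except for 6.35 CPM in MOCK replicate 3. All 10 of its log2 changes were below 0 (-0.98 to -0.05), and edgeR called none, with 2 at an unadjusted p under 0.05 and 1 called by DESeq2. Among the MOCK and DMSO libraries, IREB2 alone differed: MOCK held 133, 147 and 134 CPM, lower than DMSO at 6 h by a log2 change of -0.33 ± 0.08 (adjusted p = 0.0083, edgeR), larger in size than either called treatment change of IREB2.

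Direct comparison at matched dose and time separated both active compounds from the null analog. At 6 h and 10 µM, TFRC was higher with Isop than with Null by 0.49 ± 0.04 (adjusted p = 4.06e-11, edgeR) and with Pom than with Null by 0.47 ± 0.04 (5.55e-11); at 3 h these differences were 0.33 and 0.28. FTH1 differed from Null by 0.39 for Isop and 0.29 for Pom at 6 h, and FTL by 0.35 and 0.38. Over the 8 pairs, 14 of 64 member tests were called, where 11.6% of all gene tests were; adjusting each gene over its 8 pairs called 17. The other calls against Null were FTL with Isop at 3 h (0.17), SLC11A2 with Isop at 6 h (0.21) and IREB2 with Pom at 6 h (0.25), each lost on leaving out at least 1 replicate.

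Isopomiferin and pomiferin did not differ detectably in TFRC. At 10 µM and 6 h the Isop minus Pom difference was 0.01 for TFRC (95% interval -0.07 to 0.10), 0.10 for FTH1 (-0.00 to 0.21) and -0.03 for FTL (-0.12 to 0.06). At 3 µM and 6 h they differed in ferritin: Isop exceeded Pom by 0.27 ± 0.05 in FTH1 (adjusted p = 0.00070, edgeR) and by 0.22 ± 0.04 in FTL (0.00053), with the TFRC difference at -0.01 (-0.09 to 0.08). IREB2 was lower with Isop than with Pom there by a log2 difference of -0.40 ± 0.08 (adjusted p = 0.00072, edgeR; 0.053 without replicate 3). From 3 µM to 10 µM, Pom at 6 h added 0.20 ± 0.05 in FTH1 and 0.24 ± 0.04 in FTL, while TFRC moved by 0.05 (-0.03 to 0.14). Dose steps called 3 of 32 member tests against 6% of all gene tests, and 6 when each gene was adjusted over its 4 steps. The FTH1 step was lost without replicate 2 or 3, and the other called step, SLC11A2 at -0.20, was lost on leaving out replicates.

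The effect itself grew between 3 h and 6 h for some members. The difference between the 6 h and 3 h effects was called in 5 of 40 tests, where 4.12% of all gene tests were called: 0.22 and 0.25 in TFRC for Isop and Pom at 10 µM, 0.25 in FTH1 for Isop at 10 µM, and 0.29 and 0.29 in FTL for Isop at 3 µM and Pom at 10 µM. Of these, the FTL change with Pom at 10 µM alone was kept on leaving out each replicate. The rises in TFRC and ferritin went with lower summed neuroblast markers: 4824 to 5099 CPM with Pom at 10 µM and 5754 to 6422 CPM with Isop at 10 µM at 6 h, against 6595 to 6877 CPM in DMSO. Their part in the result was not tested, and in these bulk libraries fewer cells of a type and less RNA per cell cannot be told apart. Summed immune markers were low throughout but uneven, at most 5.49 CPM in DMSO at 6 h against at least 10.0 CPM with Pom at 10 µM, and up to 52.6 CPM in 1 DMSO library at 3 h.

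After 24 h of treatment in the third experiment, both ferritin chains were higher with 11 of the 14 isoflavone and analog treatments, and TFRC was called in 1. The 9 DMSO wells held 1149, 1354 and 1638 CPM of FTH1 (lowest, median and highest) and 270, 420 and 544 CPM of FTL. Pomiferin at dose 10 gave FTH1 at 2577, 3532 and 3699 CPM and FTL at 1363, 2182 and 1807 CPM. Those libraries lay far above all DMSO wells, at log2 changes of 1.27 ± 0.10 (adjusted p = 5.01e-18, edgeR) and 2.06 ± 0.15 (8.57e-20), or 2.41-fold and 4.18-fold.

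Ferritin levels with pomiferin were ordered by dose. At dose 3.3 its FTH1 values were 2304, 2226 and 2717 CPM and its FTL values 1188, 1094 and 870 CPM, all above DMSO (0.83 and 1.30 on the log2 scale). At dose 1, FTH1 was 1708, 2136 and 1332 CPM and FTL 638, 859 and 393 CPM, 2 libraries above all DMSO wells and 1 inside their range in both genes (0.35 and 0.56; both calls lost without replicate 1 or 2). The steps from 3.3 to 10 were 0.44 in FTH1 and 0.76 in FTL and those from 1 to 3.3 were 0.48 and 0.74. These were the 4 called of 32 dose-step tests (background 1.56%), and each lost its call on leaving out at least 1 replicate. Adjusting each gene over its 4 steps called 7.

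Isopomiferin raised both chains at each dose, with no step between doses called. Dose 15 gave FTH1 at 2795, 2405 and 2450 CPM and FTL at 946, 1058 and 1190 CPM (0.91 and 1.32). Dose 5 gave 1924, 2217 and 2157 CPM of FTH1 and 794, 1004 and 847 CPM of FTL (0.63 and 1.05). Dose 1 gave 1745, 1987 and 1914 CPM of FTH1 and 616, 737 and 686 CPM of FTL (0.47 and 0.67), which all lay above DMSO but lost their calls when replicates were left out. The step from 5 to 15 was 0.28 in FTH1 (0.02 to 0.54) and 0.27 in FTL (-0.12 to 0.67), neither called.

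**Figure D2:**
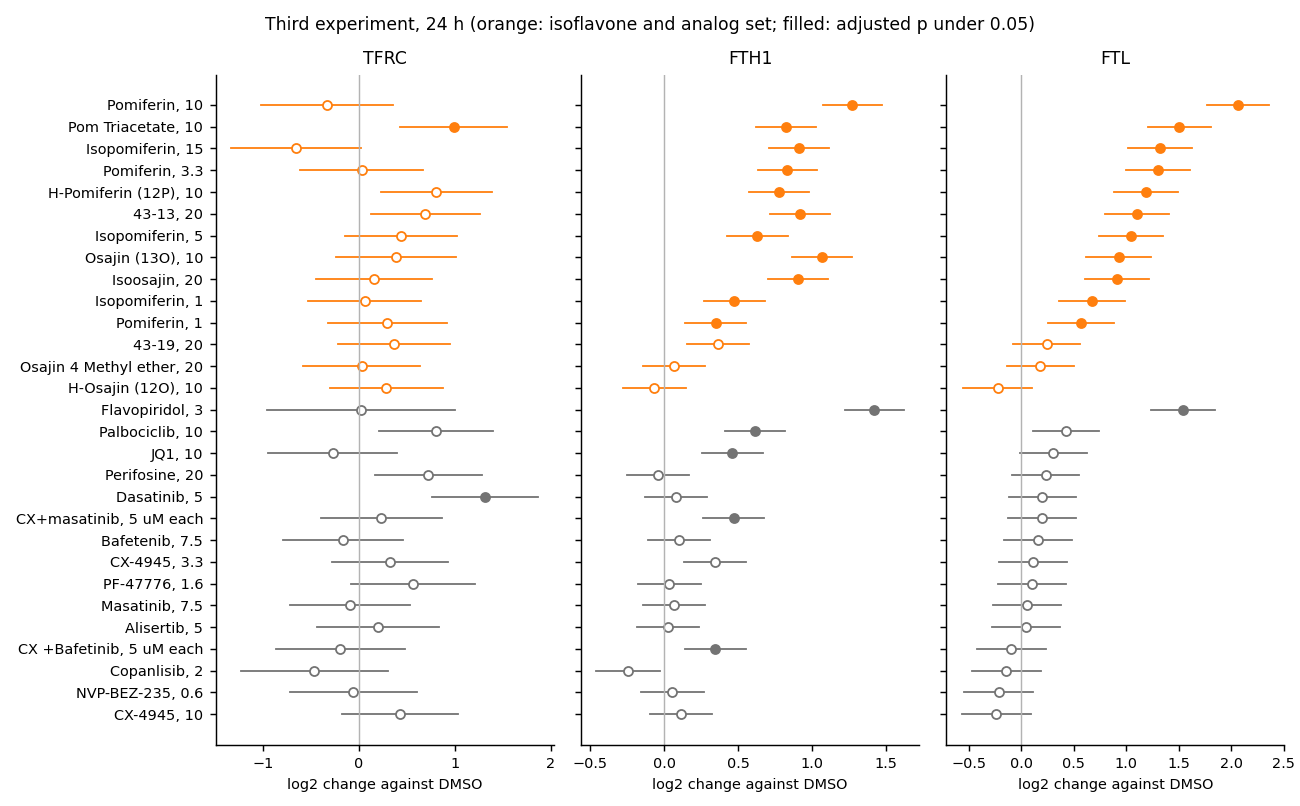
Log2 change against DMSO after 24 h with its 95% interval for TFRC, FTH1 and FTL in each treatment of the third experiment; orange marks the isoflavone and analog set, and filled points are called. FTH1 and FTL are filled in 11 of the 14 orange treatments, and TFRC in 1 of them, Pom Triacetate.

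Analogs that differ by small changes in structure differed in ferritin at the same dose. Osajin (13O), which lacks a ring hydroxyl that pomiferin carries, gave FTH1 at 3244, 2562 and 2710 CPM and FTL at 863, 863 and 708 CPM. H-Osajin (12O) gave FTH1 at 1382, 1298 and 1203 CPM and FTL at 374, 333 and 388 CPM, within the DMSO range. At the shared dose of 10, Osajin exceeded H-Osajin by 1.13 ± 0.13 in FTH1 (adjusted p = 2.24e-10, edgeR) and by 1.15 ± 0.20 in FTL (9.76e-06), and Pomiferin exceeded H-Osajin by 1.34 and 2.29. H-Pomiferin (12P), at 2124, 2354 and 2473 CPM of FTH1 and 722, 1130 and 1072 CPM of FTL, also stood above H-Osajin, by 0.84 and 1.42.

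Pomiferin and Osajin differed in the light chain but not detectably in the heavy chain. FTL was higher with Pomiferin by 1.14 ± 0.20 (adjusted p = 3.99e-05, edgeR), while the FTH1 difference was 0.20 (-0.05 to 0.46). Against H-Pomiferin, Pomiferin was higher by 0.50 in FTH1 and 0.87 in FTL, calls that were lost without replicate 2 in both genes. Against Pom Triacetate (FTH1 2561, 2374 and 2266 CPM; FTL 1311, 1484 and 838 CPM), Pomiferin was higher by 0.45 in FTH1 and lower in TFRC by a log2 difference of -1.32 ± 0.39 (adjusted p = 0.042 and 0.046, edgeR), both lost on leaving out replicates; FTL differed by 0.56 (0.16 to 0.95) without a call.

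At dose 20, Isoosajin gave FTH1 at 2381, 2491 and 2745 CPM, above Osajin 4 Methyl ether at 1232, 1569 and 1459 CPM by 0.84 ± 0.13 (adjusted p = 4.6e-06, edgeR). FTL was 899, 717 and 791 CPM against 400, 548 and 502 CPM, a difference of 0.73 whose call was lost on leaving out replicates. Of the code-named pair, 43-13 gave 2542, 2504 and 2637 CPM of FTH1 and 43-19 gave 1815, 1618 and 1801 CPM (0.55, adjusted p = 0.031, edgeR, lost on leaving out replicates). At dose 1, Isopomiferin and Pomiferin differed by 0.12 in FTH1 (-0.13 to 0.38) and 0.11 in FTL (-0.29 to 0.50). The 9 pairs called 16 of 72 member tests, against 7.37% of all gene tests, and 20 when each gene was adjusted over its 9 pairs; SLC11A2, lower with Pomiferin than with Osajin by -1.69 ± 0.54, was the call outside TFRC and ferritin, and it was lost on leaving out replicates.

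TFRC was called in 1 treatment of this set. The DMSO wells held 5.96, 15.4 and 26.9 CPM of TFRC (lowest, median and highest). Pomiferin at dose 10 gave 8.19, 17.7 and 8.27 CPM and Isopomiferin at dose 15 gave 6.6, 10.3 and 10 CPM, both within the DMSO range. From Isopomiferin dose 5 to 15 TFRC moved by -1.09 ± 0.39, with all libraries lower, but without a call (adjusted p = 0.17, edgeR). Adjusted over the 4 dose steps of TFRC alone, the p was 0.028 (edgeR). The Isopomiferin step from 1 to 5 was 0.38 (-0.34 to 1.09). Pom Triacetate gave 19.4, 31.8 and 35.1 CPM (0.99 ± 0.28, adjusted p = 0.0059, edgeR), overlapping DMSO, and lost its call without replicate 2 (0.098) or 3 (0.052). Dasatinib, a kinase inhibitor outside the set, gave 30.5, 28.6 and 51.1 CPM at dose 5, above all DMSO wells (1.32 ± 0.28, adjusted p = 0.0018, edgeR; 0.091 without replicate 3).

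In all, 34 of 232 member tests were called in the third experiment, each of them higher, where 9.57% of all gene tests were called and 5.02% called higher. The isoflavone and analog set held 24 of these in 112 tests, against 6.12% of gene tests called higher in the same contrasts. Ferritin was also high with Flavopiridol, a transcription kinase inhibitor, at FTH1 3729, 3669 and 3480 CPM and FTL 1112, 1293 and 1322 CPM (1.42 and 1.54), in a contrast whose median gene fell by 0.30 on the log2 scale. JQ1 (0.46), Palbociclib (0.61) and the pairings of CX with masatinib (0.47) and Bafetinib (0.35) had FTH1 called without FTL; the last 2 calls were lost on leaving out replicates. IREB2 was called with Flavopiridol, Masatinib and CX-4945, but 1 library made the first 2 calls: 939 CPM beside 20.9 and 27.2 with Flavopiridol, and 236 beside 42.9 and 63.3 with Masatinib. Without that library the log2 change was -0.72 (adjusted p = 0.33, edgeR) with Flavopiridol and 0.43 (0.69) with Masatinib. CX-4945 at dose 10 gave 69.1, 76.2 and 117 CPM of IREB2 (1.11 ± 0.39), and NCOA4 was called with H-Pomiferin (0.62 ± 0.22); neither call was kept on leaving out replicates.

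Neuroblast markers moved with the ferritin rise here too. Their summed level was 269 to 315 CPM with Pomiferin at dose 10 and 521 to 655 CPM with Isopomiferin at dose 15, against 1158 to 1766 CPM in DMSO. Summed mesenchymal markers were 121 to 133 CPM and 138 to 153 CPM against 248 to 351 CPM, and summed immune markers did not pass 1.87 CPM in any of these groups. The part of these levels in the ferritin result was not tested.

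In the second experiment ferritin rose with time in isopomiferin. At 24 h the Control wells held 289, 368 and 451 CPM of FTH1 (lowest, median and highest), 394, 492 and 611 CPM of FTL, and 10.5, 27.4 and 34.4 CPM of TFRC. The isopomiferin dose labelled 10 mM gave FTH1 at 999, 918 and 893 CPM and FTL at 1975, 2671 and 2649 CPM. All of these exceeded every Control well, by 1.36 ± 0.18 (adjusted p = 1.76e-09, edgeR) and 2.29 ± 0.19 (2.48e-18). At 3.3 mM FTH1 was 624, 891 and 496 CPM (0.89; adjusted p = 0.16 without replicate 2) and FTL was 1237, 950 and 1372 CPM (1.25). TFRC overlapped Control at both doses, at 50.9, 18.1 and 19.8 CPM and at 64.7, 46.5 and 11.1 CPM.

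At 6 h the same compound had no ferritin call. The dose of 10 mM gave FTH1 at 447, 454 and 450 CPM and FTL at 524, 452 and 702 CPM, against Control ranges of 254 to 482 and 434 to 686 CPM. The dose of 3.3 mM gave FTL at 770, 820 and 905 CPM, above all Control wells (0.51, adjusted p = 0.39, edgeR), and 10 mM minus 3.3 mM was -0.57 ± 0.24 in FTL (adjusted p = 0.45, edgeR), the opposite order of doses to that at 24 h. The change of the effect from 6 h to 24 h was 1.02 ± 0.27 in FTH1 and 2.37 ± 0.29 in FTL (adjusted p = 0.0100 and 2.41e-10, edgeR). Such a change between times was called in 4 of 240 member tests, where 0.916% of all gene tests were; the other 2 were FTH1 with Narasin at 1 mM (0.92) and FTL with NSC305798 at 5 mM (1.08). Isopomiferin had 4 of 16 member calls at 24 h (background 10.7%) and 0 of 16 at 6 h, where 0.557% of all gene tests were called; 1 had an unadjusted p under 0.05 and DESeq2 called 0. The step from 3.3 to 10 mM at 24 h called 1 of 8 members, FTL at 1.04 ± 0.22, against 4.13% of all genes, and lost it without replicate 2 (adjusted p = 0.12). Neuroblast markers summed to 951 to 1152 CPM at 10 mM and 24 h against 2131 to 2814 CPM in Control, and mesenchymal markers to 561 to 783 CPM against 1147 to 1359 CPM; their part was not tested.

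TFRC rose with NSC3905, with no ferritin call. At 24 h the dose of 3 mM gave TFRC at 48.9, 71.1 and 74.1 CPM, each above the highest Control well (1.32 ± 0.29, or 2.51-fold, adjusted p = 5.9e-04, edgeR), and the call was kept on leaving out each replicate. FTH1 was 507, 283 and 297 CPM (-0.02 ± 0.19) and FTL 639, 670 and 621 CPM (0.37 ± 0.20), neither called, though each FTL library lay above all Control wells. At 1 mM TFRC was 38.2, 59 and 33.8 CPM, overlapping Control (0.75 ± 0.33). NSC3905 had 2 of 16 member calls at 24 h against 8.67% of all genes; the other was NCOA4 at 1 mM, lower at 43.7, 55.6 and 33.8 CPM against 48.5, 73.5 and 190 (Control lowest, median and highest; -1.08 ± 0.32, adjusted p = 0.031, edgeR), and lost on leaving out any replicate.

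The same direction of TFRC stood at 6 h and in the first experiment without a call. At 6 h the Control wells held 10.3, 17.8 and 32.8 CPM, and NSC3905 gave 44, 34.1 and 36 CPM at 1 mM (0.98 ± 0.36, adjusted p = 0.27, edgeR), above all of them. At 3 mM it gave 31.3, 30 and 42.7 CPM (0.86 ± 0.35, adjusted p = 0.25, edgeR), overlapping them; edgeR and DESeq2 called 0 of the 16 member tests at 6 h (0.557% of all gene tests at 6 h were called), and 3 had an unadjusted p under 0.05. In the first experiment NSC3905 at dose 5 gave 17.8 and 19.7 CPM in its 2 wells, above all 8 DMSO wells (5.30 to 10.6 CPM; 1.21 ± 0.42, adjusted p = 0.065, edgeR). Its FTH1 wells were 105 and 31.5 CPM (-0.60 ± 0.34) and its FTL wells 540 and 683 CPM (-0.30 ± 0.33). It had 1 of 8 member calls there against 6.09% of all genes, ACO1 at 1.52 ± 0.48 (8.72 and 17.5 CPM), which other methods of testing and each plate alone did not keep.

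**Figure D3:**
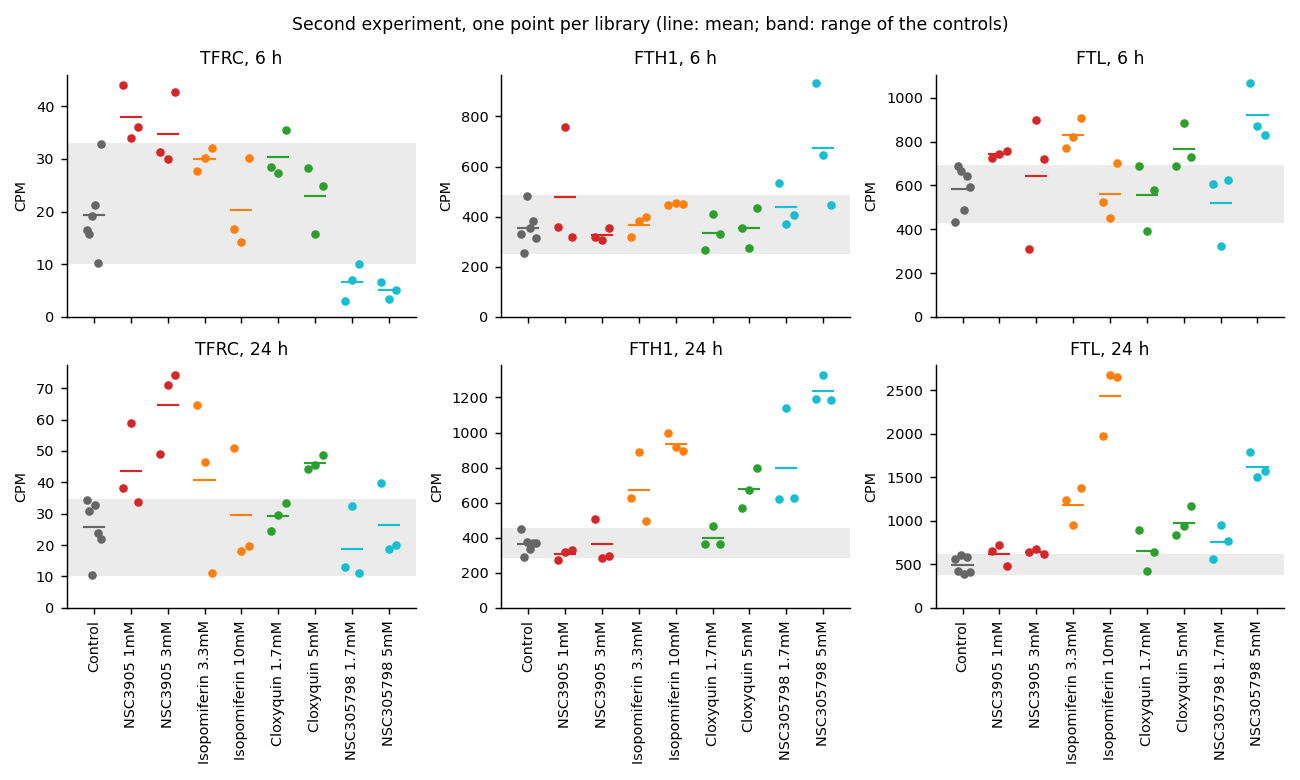
CPM of TFRC, FTH1 and FTL in each library of the second experiment at 6 h and 24 h for Control, NSC3905, isopomiferin, Cloxyquin and NSC305798; lines are means and the band is the range of the Control wells. At 24 h TFRC of NSC3905 at 3 mM and of Cloxyquin at 5 mM lies above the band, and ferritin of isopomiferin, Cloxyquin at 5 mM and NSC305798 at 5 mM lies above it.

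FTH1 rose more with NSC305798 than with any other treatment of the second experiment at 24 h. At 24 h the dose of 5 mM gave FTH1 at 1192, 1330 and 1188 CPM (1.76 ± 0.18) and FTL at 1793, 1501 and 1575 CPM (1.71 ± 0.19), all above Control, and at 1.7 mM FTH1 was 618, 1139 and 628 CPM (1.12; adjusted p = 0.42 without replicate 2). It had 3 of 16 member calls against 4.13% of all genes. At 6 h the dose of 5 mM gave FTH1 at 933, 645 and 447 CPM (0.93 ± 0.18, adjusted p = 5.4e-04, edgeR), overlapping Control and lost without replicate 1 (adjusted p = 0.52). TFRC at that dose and time was 6.54, 3.48 and 5.09 CPM, below all Control wells, at -1.93 ± 0.57; edgeR did not call it (adjusted p = 0.10) and DESeq2 did (0.021). At 1.7 mM it was 3.03, 7.01 and 10 CPM (-1.50 ± 0.54, adjusted p = 0.77, edgeR), and at 24 h TFRC overlapped Control at both doses.

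Cloxyquin, a chlorinated 8-hydroxyquinoline and metal binder, raised both ferritin chains at its higher dose. At 24 h and 5 mM FTH1 was 568, 671 and 799 CPM (0.89 ± 0.18, adjusted p = 4.6e-04, edgeR) and FTL 831, 935 and 1170 CPM (0.98 ± 0.19, adjusted p = 2.7e-04, edgeR), above all Control wells; without replicate 3 the adjusted p became 0.062 and 0.057. TFRC was 44.4, 45.7 and 48.8 CPM, also above all Control wells, without a call (0.83 ± 0.31, adjusted p = 0.17, edgeR). At 1.7 mM FTH1 (363, 466 and 363 CPM), FTL (895, 419 and 638 CPM) and TFRC (24.4, 29.6 and 33.3 CPM) overlapped Control. The 2 calls of 16 tests compare with 0.992% of all genes at 24 h. At 6 h, where 0.557% of all gene tests were called, Cloxyquin had 0 of 16 calls by edgeR and by DESeq2, with 2 at an unadjusted p under 0.05. Summed neuroblast markers at 24 h and 5 mM were 1537 to 2027 CPM with Cloxyquin and 1398 to 1839 CPM with NSC305798, below the Control range; their part was not tested.

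Other ferritin calls of the second experiment at 24 h were Narasin, an ionophore, at both doses (FTH1 600, 722 and 602 CPM at 1 mM; FTL 606, 1049 and 1027 CPM at 1 mM and 1016, 684 and 1028 CPM at 0.33 mM), and FTL alone with NSC255109 at 2.5 mM (858, 910 and 810 CPM), Azure A at 1 mM (0.68) and Mycophenolate at 2.5 mM (0.68). The Azure A, Mycophenolate and lower Narasin calls were lost on leaving out replicates. SLC40A1 was called with NSC255109 at 2.5 mM from 1 library at 32 CPM beside 2.57 and 3.14 CPM, and without it the log2 change was 0.63 (adjusted p = 0.85, edgeR). The 24 h libraries had 18 of 240 member calls, 17 of them higher, against 4.41% and 2.4% of all gene tests. The 6 h libraries had 2 of 240, both higher, against 0.557% and 0.426%: FTH1 with NSC305798, and FTL with Podofilox at 0.33 mM (998, 1000 and 801 CPM; 0.67 ± 0.20, adjusted p = 0.040, edgeR), which DESeq2 did not call and no left-out replicate kept.

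The first experiment held 1 well per compound and plate, and the plates differed in ferritin. DMSO wells of plate 1 held 93.1, 239, 186 and 129 CPM of FTH1 and 468, 376, 476 and 576 CPM of FTL, and those of plate 2 held 48.6, 49.1, 43.8 and 44.1 CPM of FTH1 and 1445, 1087, 860 and 1210 CPM of FTL. The FTH1 ranges of the plates did not overlap, nor did the FTL ranges, so plate was a term of the fit and each well is given with its plate. Wells without DMSO differed from DMSO wells in 0 of 8 members by edgeR, with none at an unadjusted p under 0.05 and 0 by the older edgeR method. Isopomiferin at dose 15 gave 1276 and 146 CPM of FTH1 on plates 1 and 2 (2.52 ± 0.27, adjusted p = 8.8e-14, edgeR) and 1761 and 3679 CPM of FTL (1.77 ± 0.29, adjusted p = 1.1e-06, edgeR), above the DMSO wells of each plate. TFRC was 9.25 and 2.04 CPM, not called (-0.25). Neuroblast markers summed to 442 to 762 CPM with isopomiferin against 913 to 1271 CPM in DMSO, and their part was not tested. Isopomiferin had 2 of 8 member calls against 12.7% of all genes.

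The 6 hydroxyquinolines, a metal-binding family, showed ferritin calls in 2 members and no TFRC call. Chloroxine, the dichloro form, at dose 15 gave FTH1 at 320 and 166 CPM (1.42 ± 0.29, adjusted p = 4.5e-04, edgeR; 0.24 without plate 2) with FTL at 539 and 986 CPM (-0.05). OXYQUINOLINE HEMISULFATE, a salt of 8-hydroxyquinoline itself, at dose 3 gave FTL at 2173 and 2237 CPM (1.58 ± 0.30, adjusted p = 8.5e-05, edgeR; 0.17 without plate 1) with FTH1 at 392 and 44.9 CPM (0.86). Without plate as a term the adjusted p was 0.80 for Chloroxine and 0.15 for OXYQUINOLINE. Each call therefore concerned a different ferritin chain, and the other chain of the same compound was not called.

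The other 4 hydroxyquinolines had no call. BENZOXIQUINE (dose 7.5) gave FTH1 at 190 and 51.6 CPM and FTL at 891 and 1999 CPM, BROXALDINE (dose 5) 271 and 74.5, and 713 and 1414 CPM. CLOXYQUIN (dose 5) gave 199 and 61.5, and 652 and 1186 CPM, and NITROXOLINE (dose 7.5) 228 and 46.8, and 901 and 1662 CPM. TFRC over the family ran from 2.6 to 21 CPM, with log2 changes of 0.18 for Chloroxine to 0.82 ± 0.49 for OXYQUINOLINE, all above 0 and none called. The CLOXYQUIN wells disagreed, with 20.6 CPM above the DMSO range on plate 1 and 2.6 CPM below it on plate 2. Chloroxine and BENZOXIQUINE lay inside that range on both plates, and BROXALDINE and NITROXOLINE above it on both. OXYQUINOLINE lay inside it on plate 1 and above it on plate 2. The family had 2 of 48 member calls, against 1.1% of all gene tests.

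At matched label doses the hydroxyquinolines were not told apart. CLOXYQUIN minus BROXALDINE gave 95% intervals of -1.22 to 0.96 in TFRC, -1.14 to 0.40 in FTH1 and -1.01 to 0.62 in FTL. NITROXOLINE minus BENZOXIQUINE gave -0.83 to 1.60, -0.67 to 0.93 and -0.96 to 0.67. With the artemisinin pair these make 24 member tests, of which edgeR called 0 (1 had an unadjusted p under 0.05, and the older edgeR method also called 0), where 0.122% of all gene tests were called. With 2 wells a compound, differences within these intervals were not detectable.

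The artemisinins ARTENIMOL (dihydroartemisinin) and ARTESUNATE, its hemisuccinate ester, are endoperoxide antimalarials that react with iron. ARTENIMOL at dose 15 gave FTL at 567 and 2992 CPM (1.04 ± 0.31, adjusted p = 0.0503, edgeR), inside the DMSO range on plate 1 and above it on plate 2. ARTESUNATE at dose 15 gave 1266 and 1299 CPM (0.80 ± 0.31, adjusted p = 0.23, edgeR), above the DMSO range on plate 1 and inside it on plate 2. FTH1 was 175 and 99.7 CPM for ARTENIMOL (0.62 ± 0.33) and 269 and 64.7 CPM for ARTESUNATE (0.63 ± 0.31). TFRC was 13.2 and 5.77 CPM (0.13 ± 0.65) and 6.55 and 16 CPM (0.44 ± 0.51), above the DMSO range on 1 plate and inside it on the other for both compounds. ARTENIMOL minus ARTESUNATE gave -0.32 in TFRC (-1.79 to 1.16), -0.01 in FTH1 (-0.84 to 0.82) and 0.24 in FTL (-0.58 to 1.05). EdgeR called 0 of 16 member tests for the pair of compounds (4 had an unadjusted p under 0.05), where 1.72% of all gene tests were called; on the control wells and 10 compounds DESeq2 called FTL with ARTENIMOL (adjusted p = 0.022).

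**Figure D4:**
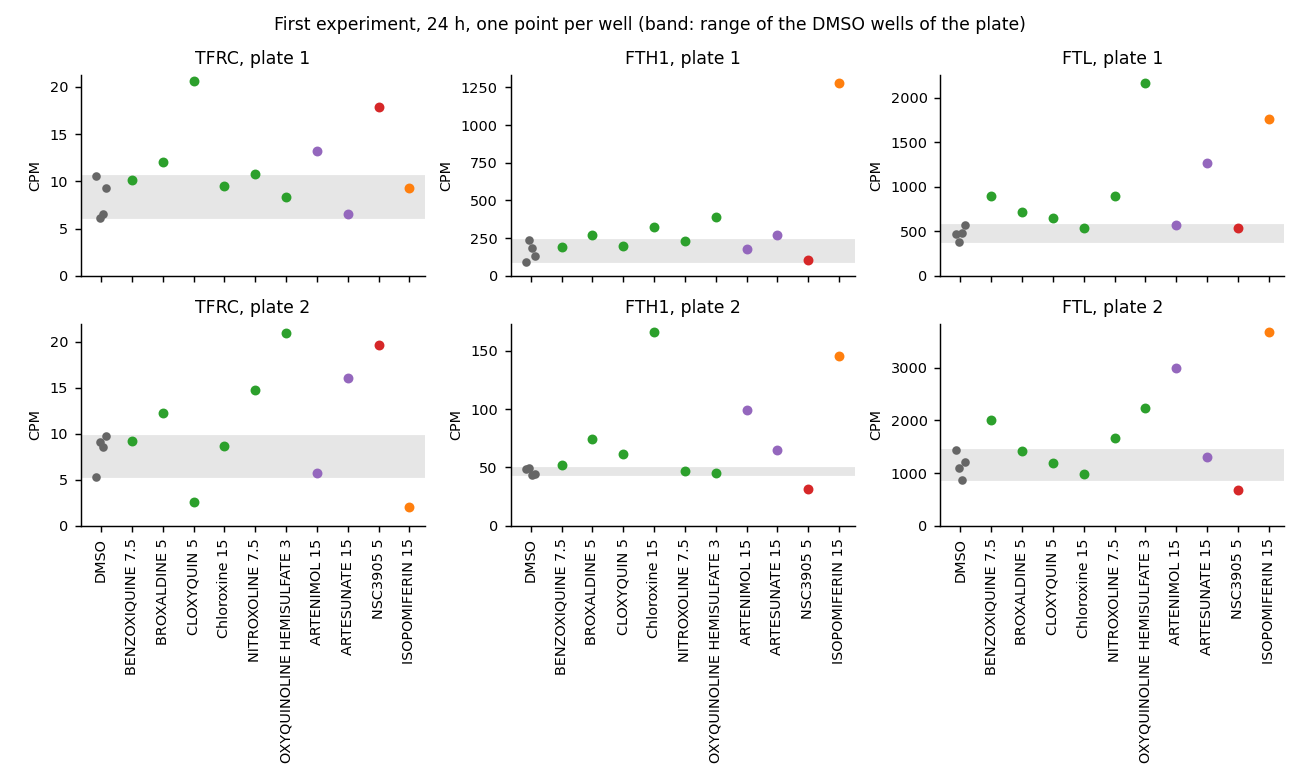
CPM of TFRC, FTH1 and FTL in single wells of the first experiment by plate for DMSO, the 6 hydroxyquinolines, ARTENIMOL, ARTESUNATE, NSC3905 and ISOPOMIFERIN; the band is the range of the DMSO wells of that plate. Both wells lie above the TFRC bands for NSC3905, BROXALDINE and NITROXOLINE. Both lie above the FTH1 bands for ISOPOMIFERIN, BROXALDINE, Chloroxine and ARTESUNATE. Both lie above the FTL bands for ISOPOMIFERIN, BENZOXIQUINE, NITROXOLINE and OXYQUINOLINE HEMISULFATE.

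Across all 90 compounds, 22 of 720 member tests were called in the first experiment, 17 of them higher, against 3.14% and 1.7% of all gene tests, a share near the background. DACTINOMYCIN, a transcription blocker, had FTH1 at 740 and 120 CPM (1.96), FTL at 1519 and 3489 CPM (1.63) and SLC11A2 at -2.07, in a contrast whose median gene fell by 0.82 on the log2 scale. Its SLC11A2 wells were 13.0 and 4.62 CPM, levels that rest on few counts. SLC11A2 was also lower with DAUNORUBICIN (-1.87), HOMIDIUM_BROMIDE (-1.18) and PROFLAVINE HEMISULFATE (-0.91). With DACTINOMYCIN these made up its 4 calls over 90 compounds, and they were not tested as a class. In the same contrasts NCOA4 was higher with DAUNORUBICIN (1.16) and PROFLAVINE HEMISULFATE (1.45) and FTH1 with HOMIDIUM_BROMIDE (0.90). The NCOA4 well of DAUNORUBICIN on plate 1, at 58.8 CPM, lay inside the DMSO range. IREB2 was lower with PROSCILLARDIN_A (-1.67), a cardiac glycoside. DISULFIRAM, GRAMICIDIN and OXIDOPAMINE HYDROCHLORIDE had FTL alone called, at 1.17, 1.42 and 1.35. FTH1 was called with NSC13151 (1.97, beside FTL at 1.11), SULOCTIDIL (1.35) and NSC255109 (1.23), the last falling to 0.08 without plate 1. TFRC had no call over the 90 compounds, with log2 changes from -1.86 to 1.21; 7 had an unadjusted p under 0.05, and the older edgeR method also called 0. With the wells without DMSO added to the controls 1 TFRC rise was called, NSC3905 at 1.25 (adjusted p = 0.036, edgeR), and without plate 2 there was also 1. Both wells exceeded all DMSO wells of their plate for 9 compounds in TFRC, 19 in FTH1 and 25 in FTL. Both wells lay below all of them for 10 compounds in TFRC, 2 in FTH1 and 1 in FTL. Such counts are not given over all genes, so whether these are unusual for a gene of this experiment was not tested.

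The direction of TFRC can be set beside that of ferritin over all 189 treatments. TFRC was called higher in 11 and lower in 0. FTH1 was called higher in 33 and FTL in 32, and neither was called lower. Of the 11 TFRC calls, 8 came from the 10 TruSeq treatments, 2 from the third experiment and 1 from the second at 24 h. Of all gene tests, 5.09% were called higher in TruSeq, 5.02% in the third experiment and 1.7% in the first. In the second experiment 0.426% were at 6 h and 2.4% at 24 h. In the first experiment, lower ferritin was called in 1 treatment without the filter on low counts. Lower ferritin calls also appeared there without plate 1, a fit with 1 well per compound. Ferritin was higher in at least 1 chain in 42 treatments and in both chains in 23. TFRC and ferritin were called higher together in 4 (3 in TruSeq and Pom Triacetate in the third experiment), TFRC alone in 7, and ferritin with no TFRC call in 38. EdgeR called opposite directions in 0 treatments; 9 TFRC tests and 4 of 378 ferritin tests were lower at an unadjusted p under 0.05. DESeq2 called 1 opposite pair, lower TFRC and higher FTH1 with NSC305798 at 5 mM and 6 h. Treatments of an experiment share their controls, and TFRC counts on the plates were low, so a missing TFRC call there does not show that TFRC was unchanged.

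**Figure D5:**
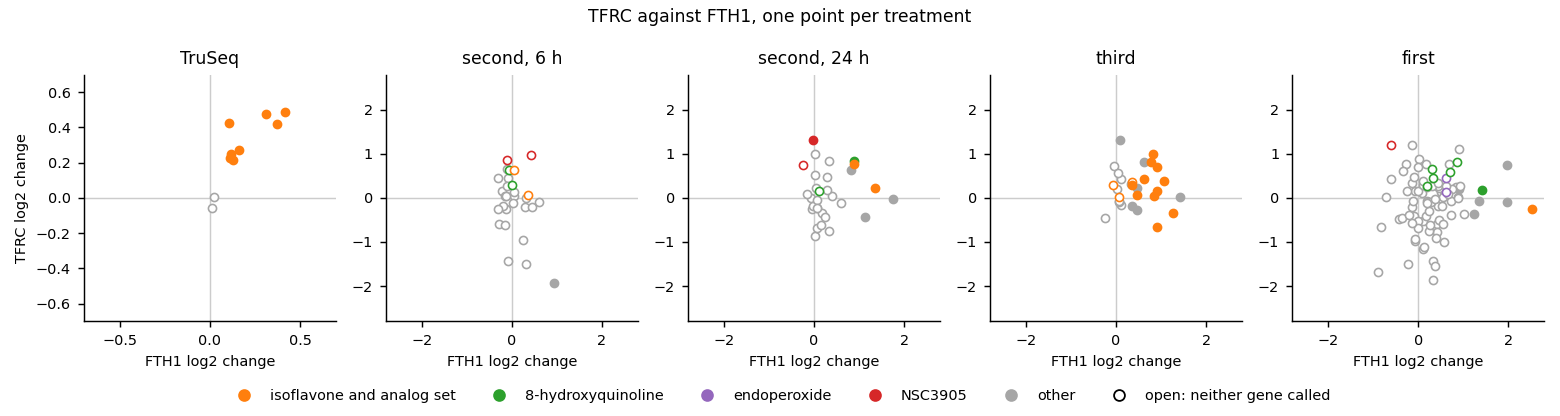
Log2 change of TFRC against that of FTH1, 1 point per treatment in each experiment, with filled points where either gene was called; TruSeq has its own scale. TruSeq points of the active compounds lie in the upper right, third-experiment points of the isoflavone and analog set spread along FTH1 with TFRC on both sides of 0, and NSC3905 at 24 h lies high in TFRC near 0 in FTH1.

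The log2 ratio of TFRC to FTH1 counts in each library gives the same contrast without a test; it is not scaled by length and is compared only between groups of the same experiment. In TruSeq at 6 h it was -2.71 ± 0.08 (SD, n = 3) in DMSO, -2.63 with Isop at 10 µM, -2.54 with Pom at 10 µM and -2.39 with Pom at 3 µM, the dose at which TFRC was called and ferritin was not. At 24 h in the second experiment it was -3.90 ± 0.68 (SD, n = 6) in Control, -2.45 with NSC3905 at 3 mM and -5.13 with isopomiferin at 10 mM. In the third experiment it was -6.70 ± 0.71 (SD, n = 9) in DMSO, -8.22 with Pomiferin at dose 10 and -8.15 with Isopomiferin at dose 15. The ratio thus moved up with NSC3905 and down with the highest doses of the isoflavones at 24 h, by more than the SD of the controls. In those isoflavone groups FTH1 was called higher while TFRC overlapped the controls, so the lower ratio does not show lower TFRC.

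Other genes of iron handling were followed in a list of 30, with lists of NRF2 targets (14), hypoxia targets (18) and metallothioneins (8). In TruSeq at 6 h, 13 of 14 NRF2 targets rose with Isop at 3 µM and 10 µM and with Pom at 10 µM, 10 with Pom at 3 µM, and 0 with Null, at medians of 0.49, 0.62, 0.66, 0.41 and -0.01, where the median over all genes lay between -0.01 and -0.00. In the same order, 17.9%, 25.4%, 31.5%, 5.55% and 0.965% of all genes were called in either direction. Of 26 other iron genes tested, 6 rose and 2 fell with Isop at 10 µM and 4 rose and 4 fell with Pom at 10 µM, at medians of 0.04 and 0.05; 8 of 26 is near the shares of all genes called in those contrasts, 25.4% and 31.5%. Hypoxia targets were called in both directions, 10 higher and 4 lower of 18 with Isop and 11 and 4 with Pom at 10 µM, where the same 25.4% and 31.5% of all genes were called. HMOX1, heme oxygenase, which frees iron from heme, rose by 3.37 ± 0.11 with Isop and 2.85 with Pom at 10 µM, and SLC48A1, a heme transporter, by 0.76 and 0.93. SLC39A14, a metal importer that also carries iron, rose by 0.79 and 0.63. In the third experiment Pomiferin at dose 10 raised HMOX1 by 5.23 ± 0.28, SLC48A1 by 1.26 and HAMP, the hormone hepcidin, by 3.55, with 8 of 14 NRF2 targets higher and 1 lower. Over the whole isoflavone and analog set 6.12% of gene tests were called higher. H-Osajin, without a ferritin call, had 0 of 14 NRF2 targets called higher and 0 lower.

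With NSC3905 at 3 mM for 24 h, 15 of 16 hypoxia targets tested rose (median 2.81, against -0.01 over all genes), among them NDRG1 (6.80), VEGFA (3.61) and the glycolysis regulator PDK1 (4.07). Of 14 NRF2 targets 1 rose, HMOX1 at 2.30, and 2 fell, NQO1 at -1.06 among them, and of 21 other iron genes 1 rose and 2 fell, HMOX1 again, BDH2 at -1.06 and ISCU at -0.46. In the first experiment 16 of 17 hypoxia targets rose with NSC3905 (median 2.76). Of all gene tests with NSC3905, 8.67% were called at 24 h in the second experiment and 6.09% in the first. TFRC is itself known to respond to hypoxia, and any part of such a response in its rise with NSC3905 was not tested. With the hydroxyquinolines of the first experiment 6 or 7 of 7 metallothioneins rose with each compound (medians 4.98 to 6.83, against -0.07 to -0.02 over all genes), beside 0 to 5 of 13 NRF2 targets and 0 to 2 of 22 other iron genes. Over that family 1.1% of all gene tests were called. Cloxyquin at 5 mM in the second experiment raised 6 of 7 metallothioneins at 6 h and 7 of 7 at 24 h (medians 4.76 and 6.07). Over all Cloxyquin gene tests at 24 h 0.992% were called. With ARTENIMOL and ARTESUNATE, HMOX1 rose by 4.01 and 3.70 and SLC48A1 by 1.32 and 1.35, and 3 and 5 of 13 NRF2 targets rose, where 1.72% of all gene tests were called. By edgeR, HMOX1 was called for both artemisinins and no ferritin chain was. FTL with ARTENIMOL narrowly missed that threshold and was called by DESeq2, and the ferritin changes of both compounds were positive. The difference in calls alone therefore does not set ferritin apart from HMOX1. In size, the HMOX1 rises were much larger than the ferritin changes of the same compounds given above.

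Over group means of log2 CPM in the 4 plate sets (92, 31, 31 and 30 groups), the gene most like FTH1 of 2528 compared was FTL, with a mean Pearson correlation of 0.62, followed by PGD (0.59), AKR1B1 (0.55), UCHL1 (0.55) and ASPH (0.53). The correlation with FTL ran from 0.20 at 6 h in the second experiment to 0.91 in the third. For TFRC the closest of 2529 genes were H19 (0.41), MAGED1 (0.34), VKORC1, TPI1 and PGK1 (0.33 each). Groups of an experiment share controls, plates and depth. Counting also sets a limit for ferritin: FTH1 and FTL have many near-identical processed copies, the deposited tables hold at most 0.745% of FTH1 counts in copies named as such, and the ratio of FTL to FTH1 counts ran from 0.350 in the third experiment to 6.80 in the first, so ferritin levels are compared here only within an experiment.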

How the data were processed

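Messenger RNA was measured in 519 libraries of SK-N-BE(2) cells, 480 by PLATE-seq and 39 by TruSeq RNA-seq. The authors deposited raw counts per gene and library. Reads were aligned with STAR to GRCh38, per the submitters' processing notes; the counting tool, its annotation and its treatment of reads matching several copies are not given in the sources used here.

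Counts were taken as deposited and grouped by the labels. Each experiment (and time in the second) was fitted on its own in edgeR 4.0.16 (R 4.3.3; TMM scaling, filterByExpr with a minimum count of 10, quasi-likelihood test, 2-sided), with plate as a term in the first experiment, whose same-plate wells deviated together (median residual correlation 0.275, with 97.4% of pairs over 0.1). All 8 genes passed the filter in all 5 fits, among 15329 genes tested in TruSeq, 11460 and 11539 in the second experiment at 6 h and 24 h, 15596 in the third and 13438 in the first. CPM use TMM-scaled library sizes. The TFRC to FTH1 ratio has a pseudocount of 0.5. DESeq2 1.42.0, RLE scaling, no filter, the older edgeR method, blocks, pseudogene sums and left-out replicates were alternatives. The script was tested on data simulated with 200 changed genes: for Isop at 10 µM and 6 h (15181 genes), it found 64.2%, 82.1% and 93.9% of genes changed 1.5-, 2- and 4-fold, with 9 false of 169 calls. For Pomiferin at dose 10 in the third experiment (15289 genes) it found 7.46%, 32.8% and 66.7%, with 26 false of 97 calls. False calls were 18 of 99 for NSC3905 at 3 mM and 24 h (11355 genes), 11 of 90 at 6 h (11314 genes) and 10 of 86 for CLOXYQUIN in the first experiment (13237 genes), so single calls on the plates are less certain than the threshold of 0.05 states.

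The members and lists were chosen with earlier results of these data known. Treatments named are the isoflavones and analogs, hydroxyquinolines, artemisinins, NSC3905 and, for each gene and experiment, up to 3 of the largest called rises and falls whose libraries did not overlap the controls; the other called treatments were named after their values were seen. Of each other list, up to 3 genes with the smallest p are named. No 2 libraries of a group agreed within sampling noise (lowest chi-square per degree of freedom 4.80).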

Additional observations from a re-analysis of the deposited data

Results flagged for a closer look

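In 4 of 40 tested combinations of gene and control group, the highest well stood far from the others of its group; chance alone gives about 1 in 20. NCOA4 reached 66.8 CPM in 1 of 9 DMSO wells of the third experiment and 61.4 CPM in 1 of 8 DMSO wells of the first. SLC40A1 reached 5.73 CPM in 1 of 8 DMSO wells of the first experiment. SLC11A2 reached 52.3 CPM in 1 of 4 wells without DMSO.

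For 9 combinations of gene and treatment the effect differed between times by a test of the difference itself. In TruSeq the 6 h effect exceeded the 3 h effect by 0.22 in TFRC and 0.25 in FTH1 for Isop at 10 µM, by 0.29 in FTL for Isop at 3 µM, and by 0.25 in TFRC and 0.29 in FTL for Pom at 10 µM (log2). In the second experiment the 24 h effect exceeded the 6 h effect by 1.02 in FTH1 and 2.37 in FTL for isopomiferin at 10 mM, by 0.92 in FTH1 for Narasin at 1 mM, and by 1.08 in FTL for NSC305798 at 5 mM.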

How the results depend on the processing

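Of 140 called changes of single genes, 66 kept their direction and call under every alternative run. Member calls numbered 16 to 20 in TruSeq, 17 to 19 at 24 h and 32 to 39 in the third experiment under other scalings, filters and tools, beside 17, 18 and 34. At 6 h the 2 calls became 5 without the filter and 1 by the older method, and 0 to 1 without a replicate; treatments with higher ferritin, 2 there, became 4, 1 and 1 (DESeq2), and 0 to 1. At 24 h those treatments fell from 10 to 6 to 7 without a replicate, and called pairs of the third experiment from 16 to 8 to 12. In the first experiment the 22 calls became 37 without the filter, 9 with no replicate block and 14 to 20 without a plate, and its 11 treatments with higher ferritin became 23 and 2. A replicate block gave 17 calls in TruSeq, 2 at 6 h, 19 at 24 h and 35 in the third experiment, where same-numbered libraries did not deviate together (median correlations -0.0078, 0.00070, -0.00046 and 0.0020). IREB2 with Flavopiridol ran from -0.72 without replicate 1 to 3.60 without replicate 3. The cause was not tested. DESeq2 on all compounds of the first experiment, and its pseudogene sum, were not run. Depth limits TFRC, SLC40A1 and ACO1 on the plates.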
